A study of Rattus norvegicus with 14 samples.

Results

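The genes described here are Txnip and 4 arrestin-domain genes, Arrdc1, Arrdc2, Arrdc3 and Arrdc4, chosen by their symbols. All 5 have a row among the 17312 genes of the deposited tables, and all 5 are among the 10133 genes that passed the filter on low values, Arrdc4 only through the libraries at 24 h. The group was put forward with earlier results of these libraries in view, in which the low Txnip level after 2 h of platelet-derived growth factor (PDGF) stood out. The members' values in that comparison are therefore a description without a test.

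RNA-seq libraries were made from the polyadenylated RNA of cultured rat aortic smooth muscle cells (RASMC), the contractile cells of the vessel wall, which came from a commercial supplier. All cells had been without serum for 24 h. The 5 groups were unstimulated cells at 0 h (2 libraries), cells given PDGF at 925 ng/ml for 2 h (3 libraries) or 24 h (3 libraries), and cells given the bromodomain inhibitor JQ1 at 500 nM for 3 h before the same PDGF for 2 h (3 libraries) or 24 h (3 libraries). Cells with JQ1 alone, and unstimulated cells at 2 and 24 h, were not analysed here, so PDGF cannot be told apart from time in culture. Sample titles hold letters A to D without JQ1 and E to H with JQ1. JQ1 therefore cannot be told apart from this change of letters, whose meaning the labels do not state. The labels do not say whether replicates were separate cultures, and p-values then measure the spread between these libraries only, which may be technical.

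Txnip encodes thioredoxin-interacting protein, which binds reduced thioredoxin and promotes removal of the glucose transporter GLUT1 from the cell surface. It belongs to the alpha-arrestins, scaffold proteins that share the arrestin fold and, through PPxY motifs, recruit ubiquitin ligases of the NEDD4 family to membrane proteins. ARRDC1 is known for budding of vesicles from the plasma membrane, ARRDC3 for sorting of membrane receptors and of integrin beta4, and ARRDC4, like TXNIP, for lowering glucose uptake. Txnip and Arrdc4 are textbook targets of the glucose-sensing factors MondoA and ChREBP, which bind E-boxes with their partner Mlx. JQ1 displaces BET bromodomain proteins from acetylated chromatin.

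Promoter sequences of 4 of the 5 genes were taken from RefSeq by symbol (build GRCr8, 250 bases upstream of the annotated start), with no entry for Txnip. Those of 3 genes are printed, chosen by their levels in these data. With JQ1 Arrdc2 was higher and Arrdc3 lower at both times, while the Arrdc4 groups with and without JQ1 overlapped. Capitals mark matches to the E-box CACGTG and to CCAAT, both searched on either strand and not overlapping each other, and each sequence runs 5′ to 3′ on the gene's strand. The windows are chr16:18635633-18635882 on the + strand for Arrdc2, chr2:12872952-12873201 on the + strand for Arrdc3 and chr1:131793426-131793675 on the - strand for Arrdc4.
Arrdc2: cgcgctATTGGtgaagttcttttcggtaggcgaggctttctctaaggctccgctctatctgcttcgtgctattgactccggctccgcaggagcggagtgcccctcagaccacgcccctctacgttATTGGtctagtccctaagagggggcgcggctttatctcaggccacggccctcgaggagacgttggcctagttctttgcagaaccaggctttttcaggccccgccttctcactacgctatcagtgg
Arrdc3: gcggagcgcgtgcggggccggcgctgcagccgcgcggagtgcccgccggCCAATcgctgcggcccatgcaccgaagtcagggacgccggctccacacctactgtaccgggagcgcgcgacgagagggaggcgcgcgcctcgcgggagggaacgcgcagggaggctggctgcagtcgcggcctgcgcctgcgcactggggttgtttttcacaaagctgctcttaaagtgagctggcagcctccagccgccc
Arrdc4: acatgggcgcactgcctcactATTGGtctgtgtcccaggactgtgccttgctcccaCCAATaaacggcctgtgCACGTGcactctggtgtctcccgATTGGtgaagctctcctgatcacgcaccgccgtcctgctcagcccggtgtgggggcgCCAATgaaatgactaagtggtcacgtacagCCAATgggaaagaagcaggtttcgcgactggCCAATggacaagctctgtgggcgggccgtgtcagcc
Arrdc4 carried 1 E-box, starting 177 bases upstream, and 6 CCAAT matches. Arrdc2 carried 2 CCAAT matches and Arrdc3 carried 1, and neither window held the E-box. Of 33469 promoters of this length, 5.59% held CACGTG, 34% held CCAAT and 0.0329% held CCAAT at least 6 times. The count of 6 is that of the Arrdc4 window, so the last share is a description and not a test. The core GTAAACA, bound by FoxO factors and searched the same way, was in 3.21% of promoters and in 0 of the 4 windows searched, Arrdc1 included. A match is only a stretch of letters and does not show binding.

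Levels are FPKM, a read number per transcript length and per library total, after the authors' normalisation, and differences are in log2(normalised FPKM + 1) with the SE of a limma fit over all libraries. Spike-in RNA was added to each library per the labels, but no source used here says how the normalisation used it. Depth in reads is unknown, and 9901 to 11503 genes were above 0 in a library. All 9 smooth muscle markers had a row and were tested, and their summed level was 9748 to 11786 in unstimulated cells, 11190 to 14769 with PDGF at 2 h and 13813 to 14746 with JQ1 plus PDGF at 2 h. At 24 h it was 1900 to 2154 with PDGF and 363 to 533 with JQ1 plus PDGF. The defining markers Cdh5 (endothelium), Ptprc (leukocytes) and Dpt (adventitial fibroblasts) were listed at 0 in all 14 libraries. Other genes of the same lists were above 0 in every library, with highest levels of 141 for Eng, 72.2 for Cd14, 122 for Lum and 25.3 for Pdgfra. In bulk RNA fewer cells of a type and less RNA per cell cannot be told apart.

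Txnip was low after 2 h of PDGF and high after 24 h, and it was higher with JQ1 at both times. Its level was 60.4 and 72.3 normalised FPKM in the 2 unstimulated libraries. With PDGF at 2 h it was 2.37, 3.99 and 3.09, and with JQ1 plus PDGF at 2 h it was 8.59, 7.60 and 7.32. With PDGF at 24 h it was 144, 122 and 116, and with JQ1 plus PDGF at 24 h it was 264, 195 and 207. No 2 of the 5 groups overlapped, and the order from low to high was PDGF 2 h, JQ1 plus PDGF 2 h, unstimulated, PDGF 24 h, JQ1 plus PDGF 24 h.

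**Figure D1:**
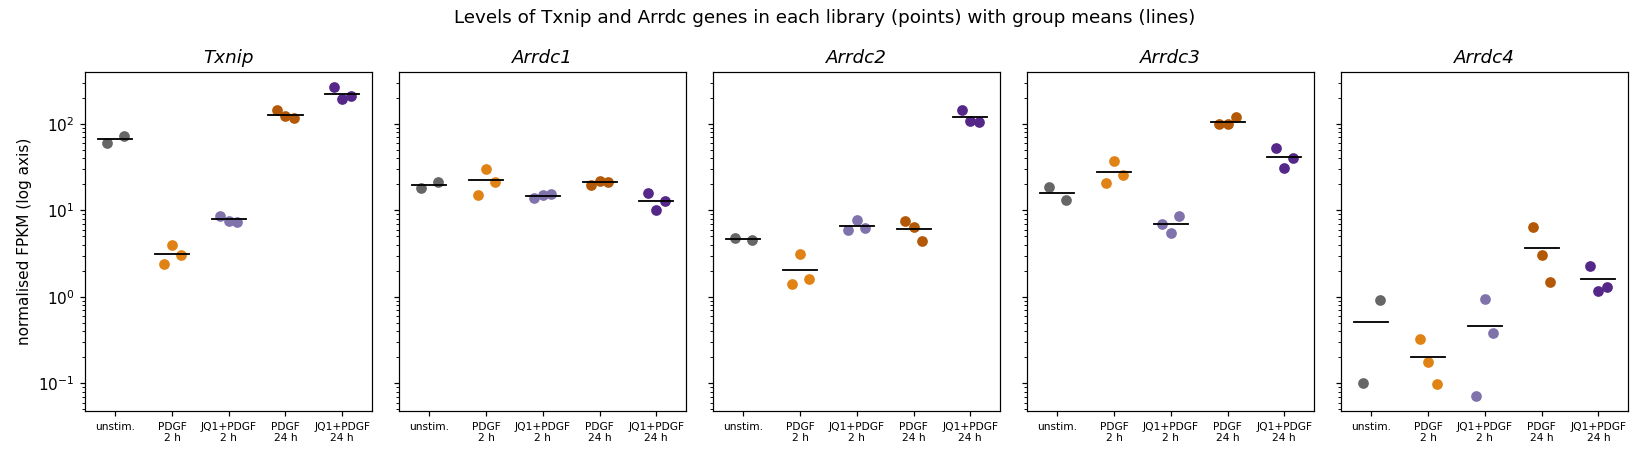
Normalised FPKM on a log axis for each gene (panels) in each library (points) of the 5 groups (x axis), with group means as lines. Txnip falls into 5 separate groups, from 2.37 in a PDGF 2 h library to 264 in a JQ1 plus PDGF 24 h library, while Arrdc1 stays between 9.99 and 30.1 throughout.

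The mean of Txnip with PDGF at 2 h was 21.1 times below that of unstimulated cells, a log2 difference of -4.03 ± 0.18 that ranked 2 from the lowest of all tested genes. The log2 scale with 1 added understates such low values. At 24 h the level was 40.5 times that at 2 h (4.97 ± 0.16) and 1.92 times that of unstimulated cells (0.93 ± 0.18), or 1.40 times on a median-centred scale, on which unnormalised values are divided by size factors. Endothelial marker sums were 42.9 to 47.9 in unstimulated cells and 120 to 144 with PDGF at 24 h, mostly from Eng (means 44.8 and 128). Leukocyte sums were 14 to 18.2 and 50.3 to 73.1, and smooth muscle sums were lower at 24 h. Their part in the result was not tested. These comparisons share libraries with the one that drew attention to the gene and are given without a p.

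The comparison of JQ1 plus PDGF with PDGF at 24 h holds no unstimulated or PDGF 2 h library, but its spread was estimated over all 14 libraries. There Txnip with JQ1 stood above Txnip without it by 0.79 ± 0.16 (limma, adjusted p = 0.000669), higher in 3 of 3 libraries. The median-centred difference was 1.30 (2.47 times). Within the JQ1 arm, Txnip rose 28.3 times from 2 h to 24 h (4.65 ± 0.16, limma, adjusted p = 4.51e-12), at rank 2 from the highest. At 2 h JQ1 plus PDGF stood 1.11 ± 0.16 above PDGF, and the JQ1 difference at 24 h minus that at 2 h was -0.32 ± 0.23, given without a p because it shares the PDGF 2 h libraries. With JQ1 at 2 h Txnip was still far below the 60.4 and 72.3 of unstimulated cells.

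Arrdc3 took a different course: it was somewhat above the unstimulated level at 2 h of PDGF and far above it at 24 h, and it was lower with JQ1 at both times. Its level was 18.7 and 13.3 in unstimulated cells and 20.7, 36.9 and 25.8 with PDGF at 2 h. With JQ1 plus PDGF at 2 h it was 6.97, 5.52 and 8.51, below every unstimulated library. With PDGF at 24 h it was 98.4, 99.8 and 119, and with JQ1 plus PDGF at 24 h it was 52.8, 30.7 and 40.1. JQ1 plus PDGF at 2 h was lowest and PDGF at 24 h highest, each apart from all other groups, while PDGF at 2 h overlapped with JQ1 plus PDGF at 24 h (36.9 against 30.7).

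The 2 h difference of Arrdc3 from unstimulated cells was 0.74 ± 0.25, and the gap between the groups was small next to their spread (18.7 against 20.7 for the nearest libraries). Without PDGF 2 h replicate 1, replicate 2 or unstimulated replicate 1 it was 0.52, 0.77 and 0.51. Over all 5 single omissions it ran from 0.51 to 0.97. The difference at 24 h was 2.66 ± 0.25, or 6.60 times, and 2.22 on the median-centred scale. JQ1 plus PDGF stood below PDGF by -1.83 ± 0.22 at 2 h. At 24 h the difference was -1.37 ± 0.22 (limma, adjusted p = 0.000104), lower in 3 of 3 libraries, or -0.85 when centred. Arrdc3 nevertheless rose within the JQ1 arm between 2 h and 24 h, by 2.38 ± 0.22 or 5.89 times (limma, adjusted p = 5.27e-07). The JQ1 difference at 24 h minus that at 2 h was 0.46 ± 0.32.

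Arrdc2, whose product is among the less studied alpha-arrestins, was scarce except in 1 group. It was listed at 4.79 and 4.56 normalised FPKM in unstimulated cells and at 1.42, 3.14 and 1.60 with PDGF at 2 h. With JQ1 plus PDGF at 2 h it was 5.89, 7.68 and 6.30, and with PDGF at 24 h it was 7.56, 6.43 and 4.44. With JQ1 plus PDGF at 24 h it reached 143, 108 and 104. The PDGF 24 h libraries overlapped with those of unstimulated cells and of JQ1 plus PDGF at 2 h, whereas PDGF at 2 h was lowest and JQ1 plus PDGF at 24 h stood apart from every other library.

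JQ1 plus PDGF at 24 h exceeded PDGF at 24 h 19.3 times (4.07 ± 0.22, limma, adjusted p = 9.64e-10), at rank 3 from the highest of 10133 genes, and 28.5 times on the median-centred scale. Within the JQ1 arm it rose 17.9 times from 2 h to 24 h (3.96 ± 0.22, limma, adjusted p = 1.4e-09). At 2 h the JQ1 difference was 1.36 ± 0.22, and the difference at 24 h was larger by 2.72 ± 0.32, likewise given without a p. The difference of PDGF at 2 h from unstimulated cells was -0.94 ± 0.25. Without unstimulated replicate 0 or replicate 1 it was -0.91 and -0.97, and over all 5 single omissions it ran from -1.18 to -0.79. The JQ1 plus PDGF 24 h libraries also had the lowest smooth muscle marker sums of the series. Their adventitial fibroblast marker sums were 5.55 to 7.51 against 133 to 150 with PDGF at 24 h, their endothelial sums 18.0 to 24.2 against 120 to 144, and their leukocyte sums 8.12 to 18.5 against 50.3 to 73.1. All 9 smooth muscle markers, both tested endothelial markers and 3 of 4 fibroblast markers fell there, beside 48.5% of all tested genes. Tek (endothelium) was at most 0.317 outside PDGF at 24 h (0.809 to 3.18) and passed the filter only through it. Des (smooth muscle) would not have passed without that group (0.922 to 2.48) and was at most 1.17 elsewhere. The falls of Tek and Des are descriptions without a test. Of the leukocyte markers Cd14 fell and Cd68 rose. The part of these shifts in the Arrdc2, Arrdc3 and Txnip differences was not tested.

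Arrdc4 was near the floor of the tables until 24 h. Unnormalised FPKM are given, because an exact 0 takes values from 0.0721 to 0.175 on the normalised scale: 0 and 0.909 in unstimulated cells, 0.308, 0 and 0 with PDGF at 2 h, and 0, 0.697 and 0.428 with JQ1 plus PDGF at 2 h. All 6 libraries at 24 h were above these, with 3.45, 2.12 and 1.46 for PDGF and 2.07, 1.66 and 1.61 for JQ1 plus PDGF, and the groups with and without JQ1 overlapped. An exact 0 may be a failed estimate. On the normalised scale the difference of PDGF at 24 h from unstimulated cells was 1.52 ± 0.41, and without unstimulated replicate 0 it was 1.12. JQ1 at 24 h (-0.72 ± 0.37, limma, adjusted p = 0.116) did not pass. Within the JQ1 arm the difference of 24 h from 2 h was 0.84 ± 0.37, or 1.03 when centred. Because Arrdc4 passed the filter only through its 24 h libraries, its differences between 24 h and earlier times are descriptions without a test.

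Arrdc1 varied least across the groups. It was 18.0 and 21.4 normalised FPKM in unstimulated cells, 15.2, 30.1 and 21.2 with PDGF at 2 h and 19.8, 21.9 and 21.5 with PDGF at 24 h. With JQ1 it was 13.7, 15.1 and 15.6 at 2 h and 15.8, 9.99 and 12.8 at 24 h. At 24 h the JQ1 libraries lay below those with PDGF alone without overlap. At 2 h the same comparison overlapped (15.6 against 15.2). The JQ1 difference at 24 h was -0.69 ± 0.21 (limma, adjusted p = 0.0108). On the median-centred scale it was -0.18 (adjusted p = 0.381), and the median of all tested genes was -0.48 on the normalised scale against 0 when centred. Without JQ1 plus PDGF 24 h replicate 1 it was -0.53 and missed the threshold. At 2 h the JQ1 difference was -0.50 ± 0.21.

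**Figure D2:**
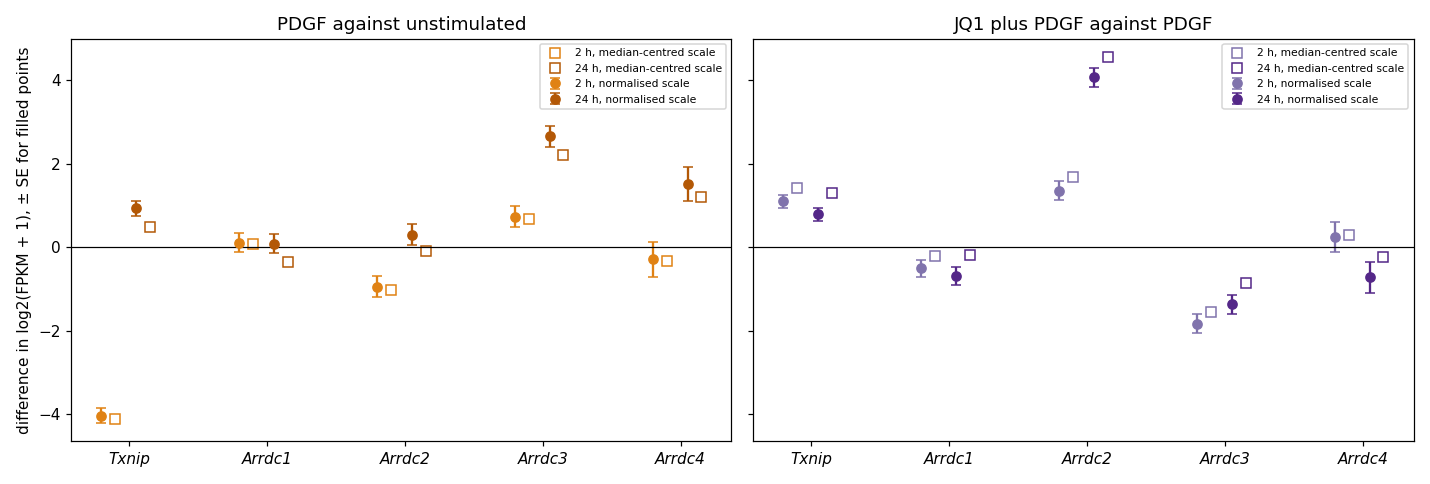
Differences in log2(FPKM + 1) for PDGF against unstimulated cells (left) and for JQ1 plus PDGF against PDGF (right) at 2 h and 24 h. Filled points are on the normalised scale with SE, and open squares are on the median-centred scale. Arrdc2 and Arrdc3 lie on opposite sides of 0 in the right panel, at 4.07 and -1.37 at 24 h.

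These counts describe the members and are not read against the shares, since the first comparison drew attention to the group, others share its libraries, and Arrdc4 could count as higher at 24 h through the filter alone. Over the 5 genes, 1 member was called higher and 2 lower for PDGF at 2 h against unstimulated cells, where 17.7% and 12.7% of all tested genes were called in those directions. For PDGF at 24 h 3 members were higher and 0 lower (all genes: 37.7% and 4.85%), and from 2 h to 24 h of PDGF 4, Arrdc4 among them, were higher and 0 lower (44.5% and 11.8%). JQ1 at 2 h had 2 higher and 1 lower (7.24% and 34%), and JQ1 at 24 h had 2 higher and 2 lower (4.61% and 48.5%), or 2 and 1 when centred (23.1% and 25.8%). Within the JQ1 arm 3 were higher and 0 lower from 2 h to 24 h (29% and 17.4%), and the change in the JQ1 difference had 1 higher and 0 lower (4.82% and 17.5%). The member medians in these comparisons were -0.29, 0.93, 1.81, 0.25, -0.69, 2.38 and -0.18, beside 0.01, 0.41, 0.39, -0.29, -0.48, 0.14 and -0.22 for all tested genes.

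The genes changed places within the family, and shares and ratios inside 1 library need no scaling between libraries. In unstimulated cells Txnip made up 62.0 ± 2.9% (SD, n = 2) of the summed unnormalised FPKM of the 5 genes. With PDGF at 2 h its share was 5.61 ± 0.59% (SD, n = 3), while Arrdc3 held 50.7 ± 1.07% and Arrdc1 40.1 ± 1.71%. With JQ1 plus PDGF at 2 h Txnip held 21.5 ± 2.64%, Arrdc2 18.2 ± 2.38%, Arrdc3 19.0 ± 3.71% and Arrdc1 40.5 ± 1.39% (SD, n = 3). At 24 h of PDGF the larger shares were those of Txnip (48.4 ± 4.36%) and Arrdc3 (40.2 ± 4.81%), and with JQ1 those of Txnip (56.0 ± 0.66%) and Arrdc2 (30.0 ± 1.28%). Arrdc2 had held 2.25 ± 0.47% without JQ1 at that time. The summed unnormalised level was 197 ± 4.51 with PDGF and 421 ± 25.6 with JQ1 plus PDGF at 24 h (SD, n = 3 each). Unlike the shares, a sum depends on the scaling between libraries. On the normalised scale it was 264 ± 11.5 with PDGF and 396 ± 71.6 with JQ1 plus PDGF.

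**Figure D3:**
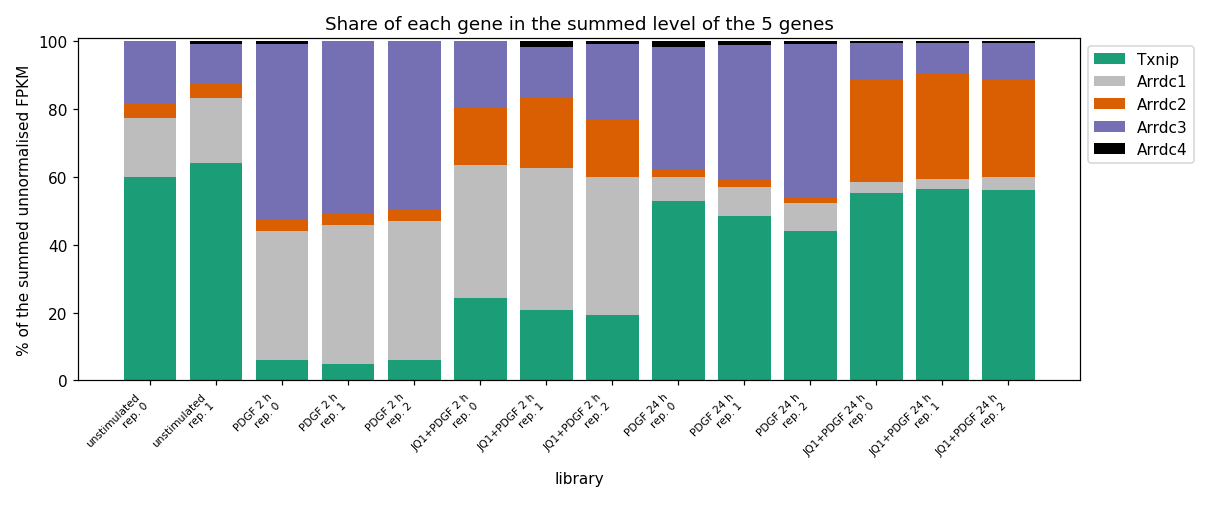
Percent of the summed unnormalised FPKM of the 5 genes (y axis) that each gene holds in each library (bars). Arrdc2 widens from between 1.72 and 2.57% with PDGF at 24 h to between 28.7 and 31.3% with JQ1 plus PDGF, and Txnip narrows to between 4.93 and 6.03% with PDGF at 2 h.

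There were 3.29 and 5.39 Txnip per Arrdc3 FPKM in the unstimulated libraries and 0.114, 0.0975 and 0.121 with PDGF at 2 h. The ratio was 1.24, 1.39 and 0.866 with JQ1 plus PDGF at 2 h. At 24 h it was 1.47, 1.23 and 0.971 with PDGF and 5.00, 6.35 and 5.11 with JQ1 plus PDGF. So Arrdc3 exceeded Txnip in every PDGF 2 h library, and Txnip exceeded Arrdc3 in every unstimulated and JQ1 plus PDGF 24 h library. Arrdc2 per Arrdc3 went from between 0.0378 and 0.0716 with PDGF at 24 h to between 2.61 and 3.52 with JQ1. The 4 quantities compared at 24 h were 3 ratios between Txnip, Arrdc2 and Arrdc3, and the unnormalised sum. Each separated the groups with an exact two-sided permutation p = 0.1 (0.1 adjusted over the 4), the smallest that 3 against 3 libraries allow.

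**Figure D4:**
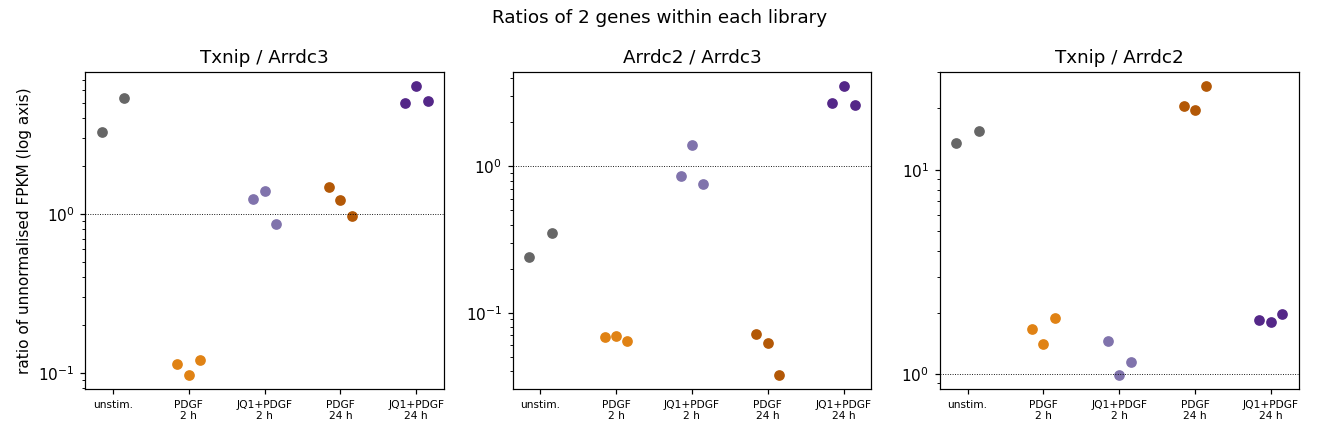
Ratio of the unnormalised FPKM of 2 members within each library (points, log axis) for the 5 groups (x axis), with a dotted line at 1. Txnip per Arrdc3 is lowest with PDGF at 2 h (0.0975 to 0.121), and Arrdc2 per Arrdc3 is highest with JQ1 plus PDGF at 24 h (2.61 to 3.52).

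Replicates of Txnip lay close together, with a pooled within-group SD of 0.20 (log2) beside a median of 0.23 over all tested genes. The SD was 0.28 for Arrdc1, 0.29 for Arrdc2, 0.32 for Arrdc3 and 0.50 for Arrdc4. Over the 14 libraries, which share groups and scaling, Pearson's r between members ran from -0.62 (Arrdc1 with Arrdc2) to 0.71 (Txnip with Arrdc4). Txnip with Arrdc2 had 0.70, Txnip with Arrdc3 0.59 and Arrdc2 with Arrdc3 0.19.

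Among 6081 genes whose group means spanned at least 1 (log2), the profile closest to Txnip over the 14 libraries was that of Tmem55b, a lysosomal phosphatase gene (r = 0.989), followed by Wdr81 (0.982), Snap47 (0.980), Mum1 (0.979) and Sox4 (0.974). Tmem55b and Wdr81 were also among the closest 5 when centred. Tmem55b stood at 28.4 ± 1.46 in unstimulated cells (SD, n = 2), at 10.4 ± 1.94 with PDGF at 2 h and at 36.8 ± 3.59 with PDGF at 24 h (SD, n = 3 each). Arrdc2 was closest to Pip5k1c, a phosphoinositide kinase gene (r = 0.988, and 0.991 when centred), which stood at 31.3 ± 0.70 with PDGF and 336 ± 58.6 with JQ1 plus PDGF at 24 h (SD, n = 3 each). Ddit3, the gene of the stress factor CHOP, also ranked among the closest 5 to Arrdc2 (r = 0.962) and stood at 88.3 ± 3.43 and 598 ± 63.6 in the same groups. Arrdc3 was closest to Gabarapl1, an autophagy gene (r = 0.976), Arrdc4 to Sh3bgrl2 (0.953) and Arrdc1 to Atp2b4, a calcium pump gene (0.952). Neither these 3 nor Ddit3 were among the closest 5 when centred.

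Genes that work with the members were taken from lists chosen by function. The median over all tested genes was 0.01 at 2 h of PDGF, and with JQ1 it was -0.29 at 2 h and -0.48 at 24 h. The list counts stand beside shares of all tested genes of 17.7% higher and 12.7% lower at 2 h of PDGF and 37.7% and 4.85% at 24 h. With JQ1 these shares were 7.24% and 34% at 2 h and 4.61% and 48.5% at 24 h. All these shares are on the normalised scale and do not serve for centred counts. The centred shares were 23.1% and 25.8% with JQ1 at 24 h. For the other comparisons centred shares are not given here, so centred counts there have no share beside them. Among the E-box factors of the Mondo and Myc network, Mlx rose at 2 h of PDGF (0.58 ± 0.17) and at 24 h (0.98 ± 0.17), and Mlxipl, the ChREBP gene, was near the floor of the tables. Mlxip was not analysed here. Of 10 tested genes of this list 2 rose and 4 fell at 2 h, the latter including the Myc antagonist genes Mnt (-1.24 ± 0.21) and Mxi1 (-0.87 ± 0.26), which like Txnip were higher at 24 h than at 2 h (1.89 ± 0.19 and 2.12 ± 0.23). With JQ1 3 rose and 2 fell at 2 h (4 and 0 when centred), and 2 rose and 6 fell at 24 h (2 and 3 when centred). The list's medians were -0.47 at 2 h of PDGF and, with JQ1, -0.03 and -0.62. Mxd1 rose with JQ1 at both times, by 1.42 ± 0.22 and 1.33 ± 0.22.

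Of 13 other known targets of MondoA and ChREBP, 4 rose at 2 h of PDGF, 0 fell and 9 did not pass (median 0.10). Those that rose were led by Rgs16 (5.62 ± 0.27), a regulator of G protein signalling. The others were Hk2, a hexokinase gene (3.81 ± 0.17), Klf10 (2.07 ± 0.20) and Pfkfb3, a regulator of glycolysis (1.09 ± 0.28). A part of MondoA or ChREBP in the course of Txnip was not tested. Hk2 moved opposite to Txnip between 2 h and 24 h of PDGF (-2.79 ± 0.15). With JQ1 1 of the 13 rose and 4 fell at each time (medians -0.28 and -0.49; 2 and 2 of 12 at 24 h when centred), with Rgs16 lower at -4.03 ± 0.24 and -3.24 ± 0.24. In the list of glucose transporters and hexokinases 3 of 8 genes rose and 0 fell at 2 h, and 5 rose and 0 fell at 24 h. Hk2 is counted in both lists, so their counts are not separate. Slc2a1, the GLUT1 gene, went from 26.7 ± 3.19 (SD, n = 2) to 75.7 ± 10.6 with PDGF and 114 ± 5.06 with JQ1 plus PDGF at 2 h (SD, n = 3 each). With JQ1 at 24 h 1 of the 8 was higher and 4 were lower (2 and 3 when centred, median -0.31). Slc2a4, the GLUT4 gene, was higher by 1.68 ± 0.24 and Slc2a12 lower at -2.20 ± 0.26. Slc2a4 was at most 0.342 in the other groups and passed the filter only through JQ1 plus PDGF at 24 h (2.09 to 3.86). Its rise, the 1 counted here, is a description without a test.

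Of 19 tested genes of the thioredoxin system 5 rose and 0 fell at 2 h (median 0.09), and 15 rose and 0 fell at 24 h of PDGF (7 and 3 when centred). Txn1, the thioredoxin gene, differed by 0.38 ± 0.16 at 2 h, which did not pass, and rose by 0.96 ± 0.16 at 24 h. The reductase gene Txnrd1 rose by 0.99 ± 0.13 at 2 h and Srxn1, which encodes sulfiredoxin, by 5.26 ± 0.16. With JQ1, Srxn1 rose by 1.07 ± 0.14 at 2 h and 2.32 ± 0.14 at 24 h, and Txnrd1 by 0.68 ± 0.12 and 0.53 ± 0.12. The list as a whole had 5 higher and 6 lower with JQ1 at 2 h (10 and 2 when centred), and 2 higher and 6 lower at 24 h (9 and 3 when centred), with medians of -0.08 and -0.23. Txn1 itself was at -0.08 ± 0.14 with JQ1 at 24 h, which did not pass, and was called higher when centred (0.43).

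The other arrestin-fold genes were 5 tested ones, of which 4 rose and 1 fell with PDGF at 24 h (1 and 1 when centred), Arrb1 by 1.46 ± 0.28 and Arrb2 by 1.11 ± 0.29. The call of Arrb2 was lost when centred (0.81). Arrb1 passed the filter only through PDGF at 24 h (3.46 to 5.27) and was at most 1.03 in the other groups. Its differences from that group are descriptions without a test. Under JQ1 at 24 h these beta-arrestin genes moved apart, Arrb1 at -1.54 ± 0.25 and Arrb2 at 1.03 ± 0.26, and 1 of the 5 rose and 3 fell (2 and 2 when centred, median -0.74). Arrdc5 was listed at 0 in every library. Of 8 NEDD4-family ligase genes 3 rose and 1 fell at 2 h of PDGF (3 and 3 when centred, median 0.31). With JQ1 1 rose and 5 fell at 2 h (2 and 2 when centred, median -0.47) and 0 rose and 5 fell at 24 h (0 and 4 when centred, median -0.82), among them Wwp2 (-1.76 ± 0.17) and Nedd4 (-1.38 ± 0.13). Of 10 ESCRT genes, the budding partners of ARRDC1, 4 rose at 2 h, with Vps37b at 2.73 ± 0.19 and Vps37c at 1.37 ± 0.16, and 0 fell (median 0.31). With JQ1 6 of the 10 were lower at 2 h (34% of all tested genes, median -0.51, 2 higher and 4 lower when centred). At 24 h 5 were lower (48.5% of all tested genes, median -0.38, 4 higher and 3 lower when centred). Of 8 tested cargo genes 4 rose at 2 h (median 0.83), led by Notch1 (3.30 ± 0.20). With JQ1 1 was higher and 1 lower at 2 h (median -0.17), and 0 were higher and 3 lower at 24 h (median -0.32). When centred, 2 were higher and 1 lower of 7 at each time.

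FoxO factors are held out of the nucleus by growth factor signalling, and Txnip is among the genes reported to respond to them. Of 22 tested FoxO genes and targets 6 rose and 7 fell at 2 h of PDGF (median -0.33), the latter led by Klf15 (-3.41 ± 0.26), Ccng2 (-2.37 ± 0.18) and the cell cycle inhibitor gene Cdkn1b (-1.56 ± 0.16). From 2 h to 24 h of PDGF 15 rose and 3 fell (all tested genes: 44.5% and 11.8%), or 13 and 5 when centred. Those that rose included Ccng2 (3.06 ± 0.16) and Sesn3 (2.95 ± 0.19). With JQ1 at 2 h 11 were higher and 1 lower (13 and 0 when centred, median 0.36). The higher ones included Bcl2l11 (2.28 ± 0.36) and Ccng2 (1.66 ± 0.16). With JQ1 at 24 h 3 were higher and 9 lower (8 and 5 when centred, median -0.58). Trim63 was at -2.11 ± 0.29, Sesn3 at -1.82 ± 0.19 and Ccng2 at -1.10 ± 0.16. The change in the JQ1 difference between the times was called lower for 10 of the 22 and higher for 0 (17.5% and 4.82% of all genes).

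**Figure D5:**
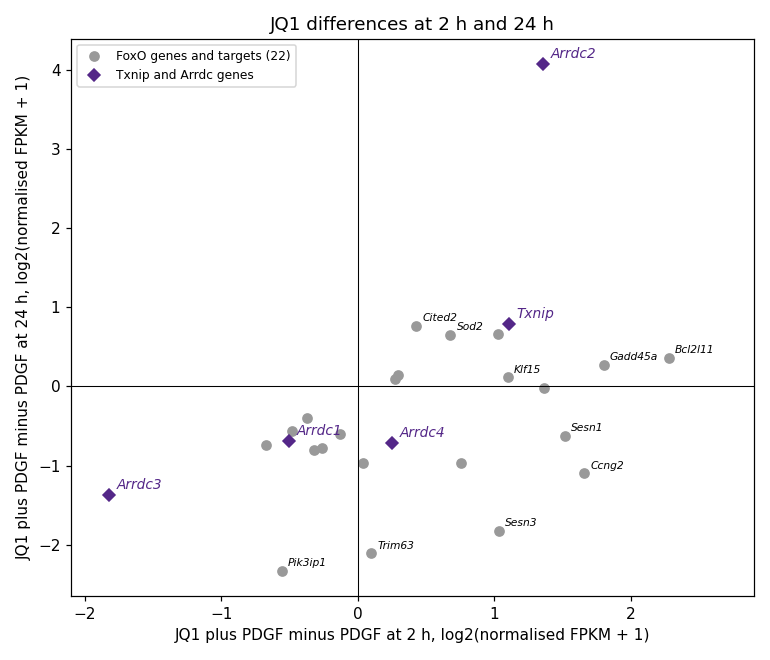
Difference of JQ1 plus PDGF from PDGF in log2(normalised FPKM + 1) at 2 h (x axis) and 24 h (y axis) for the 5 members (diamonds) and 22 FoxO genes and targets (circles). Txnip and Arrdc2 are above 0 at both times and Arrdc3 is below 0 at both, while Ccng2 and Sesn3 are above 0 at 2 h and below it at 24 h.

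Of 4 tested inflammasome genes, a pathway in which TXNIP binds NLRP3, 2 fell at 2 h of PDGF (median -0.51). Among them was Nlrp3 (-1.87 ± 0.26). Nlrp3 passed the filter on low values only through unstimulated cells (3.52 and 4.24) and was at most 0.668 in the other groups. Its fall is therefore a description without a test. With JQ1 2 of the 4 were lower at 2 h (median -0.79) and 3 at 24 h (median -1.66). Those at 24 h included Gsdmd (-3.66 ± 0.22) and Pycard (-2.29 ± 0.21). Of 6 BET and P-TEFb genes 3 were higher with JQ1 at 2 h and 2 at 24 h (4 and 5 when centred). At each time 0 were lower, with medians of 0.35 and -0.05. Hexim1, whose product inhibits P-TEFb, rose by 2.08 ± 0.13 and 1.52 ± 0.13, and Brd2 by 0.88 ± 0.24 and 2.00 ± 0.24.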

How the data were processed

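The submitters' processing notes name HISAT, Cufflinks 2.0.0 and the build rn6. The annotation and the normalisation method are not given in the sources used here. Both tables deposited by the authors hold FPKM for 17404 features, 1 unnormalised and 1 normalised. Columns were tied to groups by name, with 0 columns left over. They end in digits and the titles in letters, so libraries are named by column digit. Genes at 1 normalised FPKM or more in at least 2 libraries were tested with limma 3.58.1 in R 4.3.3 on log2(FPKM + 1), with 1 model over 5 groups (9 residual degrees of freedom), a mean trend and Benjamini-Hochberg adjustment at 0.05. The code was tested on simulated data. FPKM carry no read depth, so no count model or interval was used.

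The members and the 15 gene lists (160 genes, 127 tested, 25 low, 8 not analysed here) were chosen with earlier results of these data known. From each list up to 4 genes per comparison with the largest differences past the threshold could be named, together with 12 further genes, and not all are reported here. Genes most like a member were the 5 with the highest Pearson r, leaving out microRNA and unnamed loci. Members' p-values are printed only for comparisons without libraries of PDGF at 2 h against unstimulated cells, and for Arrdc4 only between groups of 1 time. The spread behind each p was estimated over all 14 libraries, so these p-values are not fully independent of the choice of genes. Alternatives were the median-centred scale, another pseudocount (0.1), no filter, fits of the compared groups only and leaving out each library.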

Additional observations from a re-analysis of the deposited data

Results flagged for a closer look

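The JQ1 difference differed between 2 h and 24 h for Arrdc2 and for the 8 list genes given here, which passed in limma. For Arrdc2 it was 1.36 at 2 h and 4.07 at 24 h, larger by 2.72 ± 0.32, a value that shares the PDGF 2 h libraries in view when the group was chosen and is a description without a test. For Slc2a4 it grew by 1.83 ± 0.34. Slc2a4 passed the filter on low values only through the JQ1 plus PDGF 24 h libraries, so this too is a description without a test. Ccng2 (-2.76 ± 0.23) and Sesn3 (-2.86 ± 0.27) had positive JQ1 differences at 2 h and negative ones at 24 h. For Sesn1 (-2.14 ± 0.37) the JQ1 difference was 1.52 at 2 h and -0.62 at 24 h, and for Mxi1 (-1.59 ± 0.33) it was 1.06 and -0.53. Neither 24 h value passed, and when centred they were -0.10 and -0.0072. For Mxd4 (-1.87 ± 0.36), Slc2a12 (-2.15 ± 0.37) and Trim63 (-2.21 ± 0.41) the 24 h difference was likewise below that at 2 h. Groups of 2 or 3 libraries were not searched for outlying libraries.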

How the results depend on the processing

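Of 400 member differences recomputed under the alternatives, 382 kept their direction and their side of the threshold, 12 lost and 6 gained a call, and 0 reversed. Members' calls for PDGF at 2 h, and those of Arrdc4 between times, are descriptions of the fit and not tests. On the median-centred scale Arrdc1 gained a call for PDGF at 24 h against 2 h (-0.41), lost that for JQ1 at 24 h (-0.18), and Arrdc4 gained one for 24 h against 2 h with JQ1 (1.03); Txn1, not called with JQ1 at 24 h, was called higher (0.43). The number of genes called for PDGF at 24 h against unstimulated cells was then 2819. Without a filter Arrdc3 at 2 h of PDGF lost its call (0.74). In fits of the compared groups only, Arrdc2 (-0.94) and Arrdc3 (0.74) lost theirs at 2 h of PDGF, Arrdc4 gained one for 24 h against 2 h with JQ1 (0.84), and 1537 genes were called for PDGF at 2 h. Leaving out 1 library gave 1606 to 3150 genes for PDGF at 2 h against unstimulated (1606 without unstimulated replicate 0 and 1942 without replicate 1, against 3078) and 2487 to 3899 for PDGF at 24 h against unstimulated (2487 without unstimulated replicate 0, against 4314). Over these omissions Arrdc2 at 2 h of PDGF ran from -1.18 to -0.79, Arrdc3 from 0.51 to 0.97 and Arrdc4 at 24 h of PDGF from 1.11 to 1.93. With JQ1, Arrdc1 ran from -0.73 to -0.26 at 2 h (called without PDGF 2 h replicate 0) and from -0.84 to -0.53 at 24 h, Arrdc4 from -1.10 to -0.30 at 24 h (called without PDGF 24 h replicate 2), and Arrdc4 from 24 h against 2 h from 0.64 to 1.06 (called without JQ1 plus PDGF 2 h replicate 1). A lone remaining unstimulated library was assumed to vary like the other groups. With 2 libraries left out at once (PDGF 2 h replicate 1 and PDGF 24 h replicate 0), an alternative chosen after seeing the data because the normalisation moved up their low values most (by 0.61 and 0.78), Arrdc3 at 2 h of PDGF lost its call (0.52). Apart from the fewer genes or libraries in these settings, the cause was not tested. No paired analysis was possible because the columns do not carry the letters of the sample titles. The titles hold letters A to D without JQ1 and E to H with JQ1, so JQ1 comparisons share no letter. JQ1 cannot be told apart from this change of letters, whose meaning the labels do not state. Unknown read depth limits Arrdc4 most, whose values reach 0.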
